A study of Mus with 50 samples.

Results

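The genes described here are 10 components of the insulin-like growth factor (IGF) and growth hormone axis, chosen by name from the 22180 genes measured in 50 mouse livers. They are the hormone Igf1, its carrier Igfals, the binding proteins Igfbp1, Igfbp2, Igfbp3 and Igfbp4, the receptor Ghr, the transcription factor Stat5b and the feedback inhibitors Socs2 and Cish. Each gene was read from the probe set that carries its symbol alone, and where a gene had several of these, from the one with the highest median. Every liver came from a different female mouse of a C57xFVB backcross that carried the MMTV-Neu protooncogene transgene, with breast cancer as comorbidity in every case, and every liver was profiled on 1 whole-transcript array. In the MMTV-Neu design, mammary tumours arise because a mammary tumour virus promoter drives the transgene mainly in mammary epithelium; no strain without the transgene and no liver without that comorbidity was analysed here. By the design text the mice had extreme grades of ageing, but neither the grade nor the age of any mouse is in the labels, so the 50 livers form 1 group and no ageing comparison was made. The extraction protocol speaks of purified cell populations, whereas the tissue is given as liver. Alb, the serum albumin gene of hepatocytes, ranged from 13.31 to 13.45 log2 in 4 livers that stood apart. It ranged from 13.20 to 13.54 in the other 46, and 13.54 was the highest signal in the data. The mean of a list of hepatocyte markers was 10.69 to 11.72 in the 4 livers and 11.60 to 12.01 in the 46.

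Growth hormone from the pituitary binds the receptor encoded by Ghr on hepatocytes and, through the kinase JAK2, activates STAT5 proteins, which drive transcription of Igf1, Igfals, Socs2 and Cish. The liver secretes most of the IGF-I in blood, where it circulates in a complex with IGFBP-3 and the acid-labile subunit encoded by Igfals, while SOCS2 and CISH damp the receptor's signal. IGFBP-1 and IGFBP-2 bind IGF-I outside that complex, and hepatic Igfbp1 is known to be raised by fasting and glucocorticoids and lowered by insulin.

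Values are log2 signals made by the authors with RMA, a method that corrects background, normalises arrays to 1 distribution and summarises probes. A difference of 1 is therefore a doubling of signal, and levels of different genes, which rest on different probes, were not set against each other. A filter at the median gene level of 3.61 left 11090 genes for testing, and all 10 axis genes passed it. No member of the axis fell into separate groups of livers. The rule asked for a gain of over 10 in the Bayesian information criterion and at least 5 livers in the smaller group. It also asked for group means at least 4 SD and 0.5 log2 apart. Igf1 and Igfals met the conditions on gain and group size, but their group means lay 2.68 and 2.89 SD apart.

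A set of 4 livers stood apart from the rest over all genes, those of animals 64, 84, 87 and 235. Their median correlation with the other livers was 0.794, 0.903, 0.932 and 0.857, in that order, against 0.944 or more in each of the other 46. The mean of the hepatocyte markers was 10.69 to 11.72 log2 in these 4 livers and 11.60 to 12.01 in the other 46. The proliferation markers reached a mean of 8.59 in animal 64, against at most 5.14 in the 46. The macrophage markers reached 10.27 in animal 235, against at most 8.47 in the 46. The mean of the lymphocyte markers was 7.28 in animal 87, against at most 7.39 in the 46. In whole tissue, fewer cells of a type and less RNA per cell cannot be told apart. The pairs of the 10 genes, and most other relations, are therefore given with and without these 4 livers.

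Of the 10 genes, Igfbp1 had the largest SD over the 46 livers (1.22 log2) and Igfbp4 the smallest (0.16), and the SD of Igf1 was 0.24. With the 4 livers included the SD of Ghr was 0.65 (0.35 without them), of Igfals 0.64 (0.34) and of Igf1 0.40, whereas Socs2 had 0.75 and 0.73 and Cish 0.38 and 0.37.

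**Figure D1:**
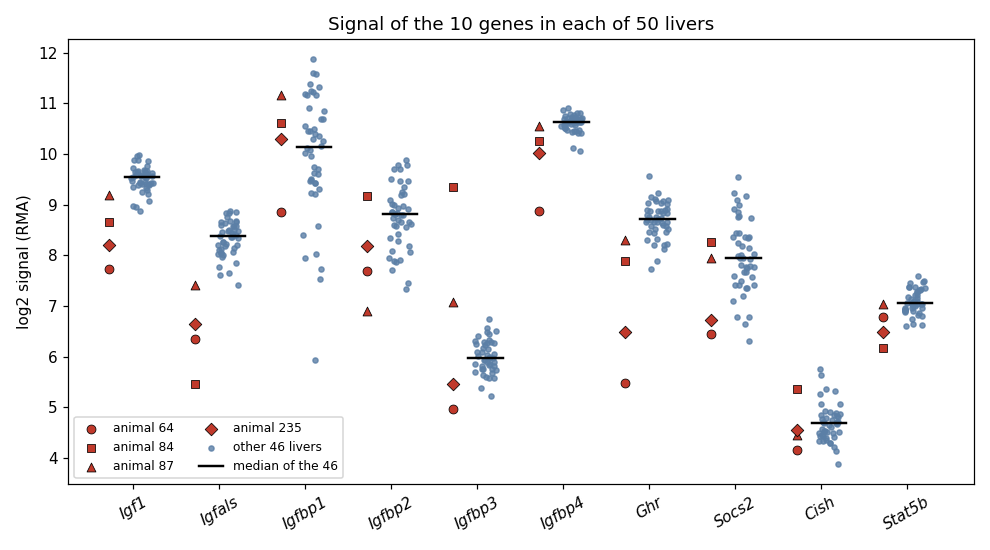
Log2 RMA signal (vertical axis) of the 10 genes (horizontal axis) in each liver. Red symbols are the 4 livers that stood apart, blue points the other 46, and black bars the median of the 46. Igf1, Igfals and Ghr were low in animals 64 and 235, Igfbp3 was far above all others in animal 84, and Igfbp1 ranged from 5.93 to 11.88.

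Igf1, the hormone gene (probe set 17236288), had a lowest value of 7.73 in animal 64, a median of 9.53 and a highest of 9.98 in animal 229 (SD 0.40, n = 50). The next lowest were animal 235 at 8.20 and animal 84 at 8.66, so 3 of the 4 livers that stood apart held the bottom places. The difference from the median of the other 46 was -1.82 log2 units in animal 64, -1.36 in animal 235, -0.89 in animal 84 and -0.35 in animal 87. The 46 livers lay between 8.88 and 9.98. Igfals, the acid-labile subunit that holds IGF-I in its large circulating complex (probe set 17334468), had a lowest value of 5.45 in animal 84, a median of 8.35 and a highest of 8.87 in animal 171 (SD 0.64). Animals 64 and 235 followed at 6.34 and 6.65, and the 46 began at 7.42. Of the tested genes, 22.0% had a larger SD than Igf1 and 5.95% a larger SD than Igfals.

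The binding proteins differed from each other in how they varied. Igfbp1, an insulin-repressed binding protein (probe set 17247208), had a lowest value of 5.93 in animal 60, a median of 10.21 and a highest of 11.88 in animal 257 (SD 1.20). The second lowest, animal 101, was at 7.54, and 0.397% of the tested genes had a larger SD. None of the 4 livers that stood apart lay at either end of it. Igfbp2, a binding protein of which the hepatic transcript is raised by fasting in rat (probe set 17214106), had a lowest value of 6.89 in animal 87, a median of 8.79 and a highest of 9.88 in animal 270 (SD 0.68).

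Igfbp3, the main partner of IGF-I in blood, which in rat liver is made largely by non-parenchymal cells (probe set 17260474), had a lowest value of 4.96 in animal 64, a median of 5.97 and a highest of 9.36 in animal 84 (SD 0.61). The second highest was animal 87 at 7.08 and the third animal 161 at 6.74, so animal 84 stood 3.39 log2 units above the median of the 46. The SD over the 46 livers was 0.32. In animal 84 the endothelial marker mean, 8.17, was the highest of the 50 livers, against at most 8.02 in the 46. Of the 13 endothelial markers none was called with Igfbp3 over 50 livers, where 4.94% of tested genes rose and 1.16% fell. The part of endothelial cells in the Igfbp3 level was not tested. Igfbp4, a binding protein that inhibits IGF action and is cleaved by PAPP-A (probe set 17256264), had a lowest value of 8.87 in animal 64, a median of 10.63 and a highest of 10.91 in animal 170 (SD 0.31). The range that held 80% of the livers was 0.37 log2 for Igfbp4, and 95.7% of the tested genes had a wider one.

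Ghr, the growth hormone receptor (probe set 17315635), had a lowest value of 5.47 in animal 64, a median of 8.68 and a highest of 9.57 in animal 91 (SD 0.65). Animal 235 followed at 6.48, the 46 began at 7.73 in animal 179, and animals 84 and 87 were at 7.88 and 8.30. The share of all tested genes that lay as far out in these livers was not computed. Stat5b, the transcription factor that carries the receptor's signal to the nucleus (probe set 17269695), had a lowest value of 6.16 in animal 84, a median of 7.04 and a highest of 7.59 in animal 89 (SD 0.28). Its SD was close to the median SD of the tested genes, which was also 0.28.

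Socs2, a STAT5 target that restrains growth hormone signalling (probe set 17274184), had a lowest value of 6.30 in animal 179, a median of 7.94 and a highest of 9.54 in animal 289 (SD 0.75). Animals 64 and 235 were among its 4 lowest livers, at 6.45 and 6.72, whereas animals 84 and 87 were at 8.26 and 7.94. A second Socs2 probe set had a median of 4.25 and followed the first with r = 0.879. Cish, a further STAT5 target that inhibits cytokine receptors (probe set 17521300), had a lowest value of 3.88 in animal 290, a median of 4.66 and a highest of 5.76 in animal 187 (SD 0.38). Its second probe set had a median of 3.27, below the filter, and followed the first with r = 0.462.

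The next question was which of the genes moved together from liver to liver. Over all 50 livers, 9 of the 45 pairs were called, all of them positive, and they joined Igf1, Igfals, Igfbp4, Ghr and Stat5b (limma, the larger of the 2 Benjamini-Hochberg adjusted p under 0.05, adjusted over all tested genes). Igfbp1, Igfbp2, Igfbp3, Socs2 and Cish were in no called pair. Without the 4 livers that stood apart, 2 pairs were called: Igfals rose with Ghr, and Igfals fell with rising Igfbp1. The median r of the 45 pairs was 0.258 over 50 livers and 0.150 over 46.

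The count of partners has to be read against how many genes of any kind were called with each gene. Igf1 had 4 partners among the other 9 genes, where 43.6% of all tested genes were called with Igf1. Igfals also had 4, where 43.7% were called with Igfals, and Ghr had 4, where 50.8% were called with Ghr. Igfbp4 had 3, where 45.8% were called with Igfbp4, and Stat5b had 3, where 8.55% were called with Stat5b. Over the 46 livers Igfals had 2 partners, Ghr 1, Igfbp1 1 and Igfbp2 0, where 7.69%, 13.7%, 15.2% and 2.62% of tested genes were called with them. Over all 50, the 0 partners of Igfbp1, Igfbp2, Igfbp3, Socs2 and Cish stood beside 8.55%, 0.884%, 6.11%, 0.0631% and 1.12% of tested genes called with them in limma (2567, 1955, 2218, 1326 and 1449 genes at an unadjusted p under 0.05). Partner counts and shares follow unlike rules, since a pair had to pass in both fits and each share comes from 1 fit. Counted in 1 fit, 6 of the other 9 genes rose with Igf1, 5 with Igfbp4, 5 with Ghr and 3 with Stat5b. With Igfals 4 rose and 1 fell, and with Cish 1 rose. Over the 46, 1 rose and 1 fell with Igfals, and 2 rose and 1 fell with Igfbp1. There 1 rose with each of Igf1, Igfbp2, Igfbp4, Ghr and Cish. None of these counts was tested against its share.

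**Figure D2:**
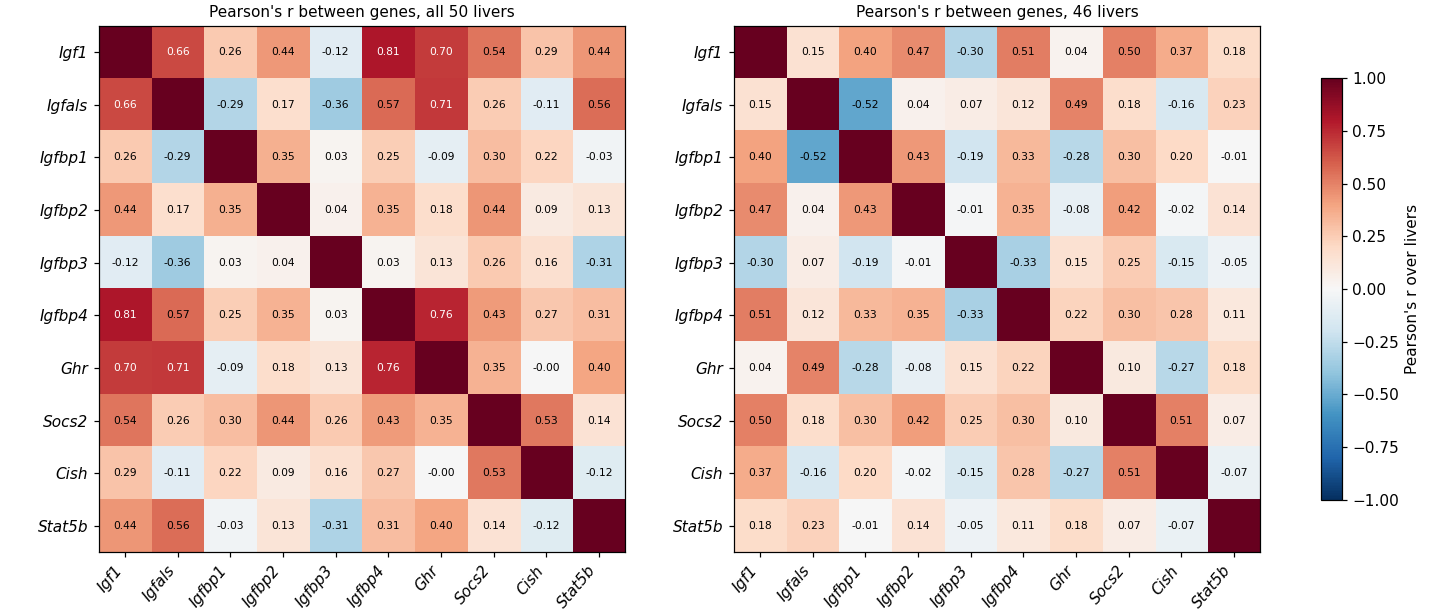
Pearson's r between each pair of the 10 genes over all 50 livers (left) and over the 46 livers without animals 64, 84, 87 and 235 (right), coloured from -1 (blue) to 1 (red). The block of high r that joined Igf1, Igfals, Igfbp4 and Ghr on the left gave way to smaller values on the right, and the r of Igf1 with Ghr was 0.70 over 50 and 0.04 over 46.

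The relation of the hormone gene to the receptor gene rested on the livers that stood apart. Igf1 with Ghr had r = 0.698 over 50 livers (permutation p = 6e-05, limma adjusted p = 2.49e-07), but rho was 0.247 (permutation p = 0.0851). Leaving out the 2 livers farthest from the median of Igf1 gave r = 0.195, and leaving out all 4 gave r = 0.0351 (limma adjusted p = 0.942). Animals 64 and 235 were the 2 lowest livers for both genes. Igf1 with Igfals had r = 0.661 (permutation p = 6e-05, rho 0.344 with permutation p = 0.0147, limma adjusted p = 2.16e-06), 0.457 without the 2 farthest livers on Igf1 and 0.150 over the 46. The 2 proteins travel in 1 complex in blood, and in the 46 livers the relation of their transcripts was not called (limma adjusted p = 0.665).

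The relation of Igfals to Ghr was called both with and without the 4 livers. Its r was 0.710 over 50 livers (permutation p = 4e-05, rho 0.517 with permutation p = 0.00011, limma adjusted p = 1.01e-07), 0.688 without the 2 livers farthest on Igfals, and 0.494 over the 46 (limma adjusted p = 0.012). Leaving out the 2 livers farthest on Ghr gave r = 0.557. In the 4 runs of neighbouring animal numbers that are set out further on, called stretches, r was 0.957, 0.663, 0.889 and 0.565 in order of number. Without the 4 livers that stood apart, the stretches had r of 0.722, 0.107, 0.687 and 0.565. With the first principal component of the arrays as a covariate, however, r was -0.00961, and that component held 25.8% of the variance and followed the hepatocyte marker mean with r = 0.849. The component was computed from all tested genes, Ghr and Igfals among them. With it as covariate, 0.0902% of tested genes were called with Ghr, against 50.8% without it. This fit therefore cannot separate the relation of the pair from the component. With the hepatocyte marker mean itself as covariate, the pair was called with r = 0.429 (limma adjusted p = 0.0131).

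Igfals and Igfbp1 ran in opposite directions. Over the 46 livers r was -0.522 (rho -0.571, limma adjusted p = 0.00612). Over all 50 r was -0.293 (permutation p = 0.0404, limma adjusted p = 0.172, so not called), while rho was -0.510 (permutation p = 0.00018). The 4 livers had Igfals of 5.45 to 7.42 at Igfbp1 of 8.85 to 11.18. Leaving out the 2 livers farthest on Igfals gave r = -0.464, and leaving out the 2 farthest on Igfbp1 gave -0.256. With the 2 farthest livers left out, the pair was not called (limma adjusted p = 0.331). Within the 4 stretches r was -0.125, -0.451, -0.298 and -0.416. With the hepatocyte marker mean as covariate r was -0.574 (limma adjusted p = 0.000359). With the first array component as covariate r was -0.292 and the pair was not called (limma adjusted p = 0.186).

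Igf1 and Igfbp4 had the highest r of the 45 pairs, 0.808 (permutation p = 1e-05, the smallest that 100000 permutations can give, rho 0.580 with the same p, limma adjusted p = 1.18e-09). It was 0.575 without the 2 farthest livers on Igf1 and 0.514 over the 46, where the limma adjusted p was 0.0509. Within the stretches it was 0.972, 0.672, 0.765 and 0.641, and without the 4 livers 0.818, 0.276, 0.152 and 0.641. With the hepatocyte marker mean as covariate r was 0.178 and the pair was not called (limma adjusted p = 0.694). With the first array component as covariate r was 0.565 (limma adjusted p = 0.00549). Igfbp4 ranked 11th of 11089 genes by r with Igf1. Igfbp4 with Ghr had r = 0.764 over 50 livers (permutation p = 1e-05, rho 0.284 with permutation p = 0.0468, limma adjusted p = 2.13e-09) but 0.302 without the 2 farthest on Igfbp4 and 0.223 over the 46, and in the stretch of highest numbers it was -0.559. Igfals with Igfbp4 had r = 0.567 (permutation p = 0.00301, rho 0.219 with permutation p = 0.126, limma adjusted p = 0.00013), 0.357 without the 2 farthest on Igfals and 0.121 over the 46.

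Stat5b was called with 3 genes over all 50 livers. With Igfals r was 0.558 (permutation p = 6e-05, rho 0.290 with permutation p = 0.0423, limma adjusted p = 0.00465). With Igf1 it was 0.443 (permutation p = 0.00205, rho 0.324 with 0.0219, limma adjusted p = 0.0244), and with Ghr 0.396 (permutation p = 0.0063, rho 0.274 with 0.0537, limma adjusted p = 0.0442). Without the 2 livers farthest on Igfals, Igf1 and Ghr, these were 0.367, 0.365 and 0.307. Over the 46 the r values were 0.232, 0.184 and 0.183, with limma adjusted p from 0.723 to 0.806. In animals 84 and 235, the 2 lowest for Stat5b, Igfals was also among the 3 lowest.

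The 2 feedback inhibitors, both transcribed in response to STAT5, had a relation that stayed positive when livers were left out, although it did not pass the threshold. Socs2 with Cish had r = 0.527 (permutation p = 7e-05, rho 0.559 with permutation p = 5e-05) and 0.506 over the 46. It was 0.635 without the 2 livers farthest on Socs2 and 0.466 without the 2 farthest on Cish. The limma adjusted p was 0.0599 over 50 livers and 0.112 over 46. Within the stretches r was 0.927, 0.477, 0.447 and 0.563. Of 11089 genes Cish ranked 10th by r with Socs2, and Igf1 ranked 8th. With the mean of both probe sets of each gene, Socs2 with Cish was called (r = 0.611, limma adjusted p = 0.00869).

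Igf1 with Socs2 had r = 0.535 (permutation p = 3e-05, rho 0.523 with permutation p = 0.00014, limma adjusted p = 0.0599), 0.419 without the 2 farthest on Igf1, and 0.504 over the 46. Within the stretches it was 0.796, 0.503, 0.497 and 0.493. Igf1 with Igfbp2 had r = 0.436 (permutation p = 0.00139, rho 0.489 with permutation p = 0.00036, limma adjusted p = 0.0756) and 0.475 over the 46 (limma adjusted p = 0.0522). Igfbp2 with Socs2 had r = 0.442 (permutation p = 0.00134, rho 0.436 with permutation p = 0.00167, limma adjusted p = 0.147) and 0.422 over the 46. Neither pair was called.

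**Figure D3:**
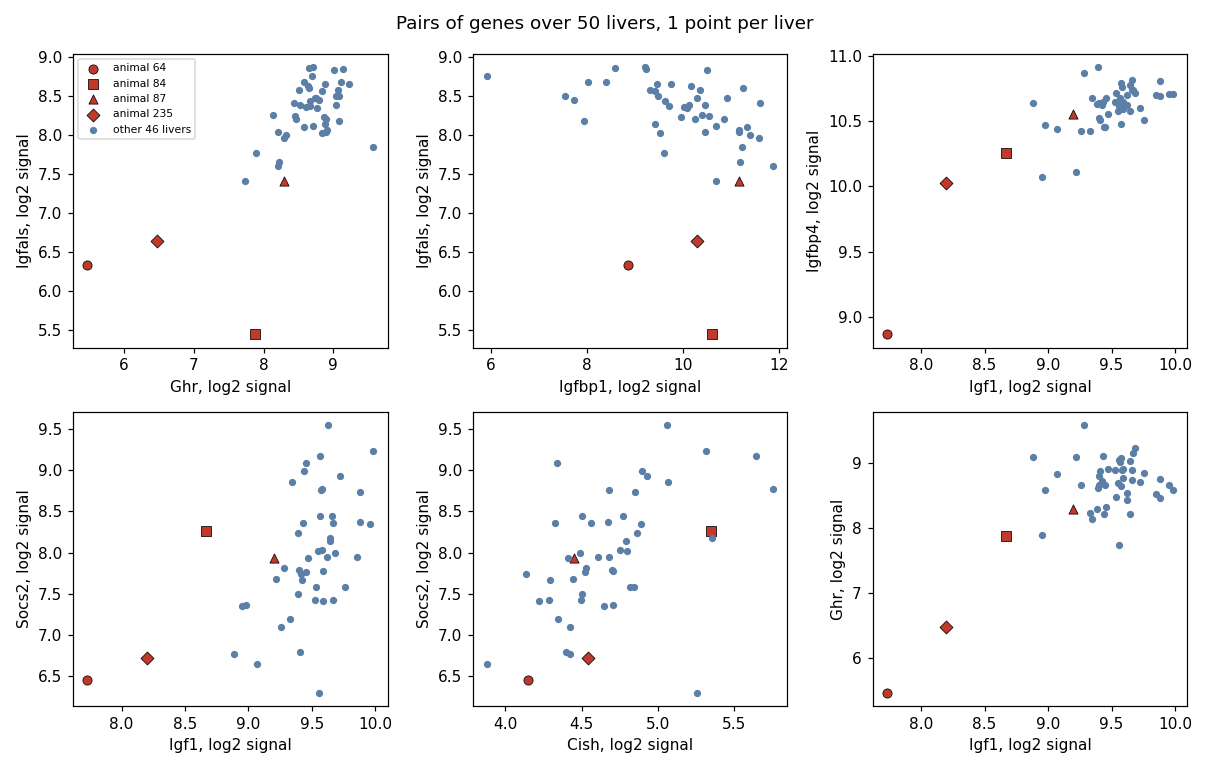
Log2 signal of 6 pairs of genes, 1 point per liver, with the 4 livers that stood apart in red and the other 46 in blue. Igfals rose with Ghr and fell with Igfbp1 inside the blue points, whereas Igf1 and Ghr had r = 0.0351 among the blue points and 0.698 with the red ones.

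The r of 3 pairs of genes that are neighbours on a chromosome was computed. Igfbp1 and Igfbp3 lie next to each other in the RefSeq gene order of assembly GRCm38.p6, and their r was 0.027 over 50 livers and -0.192 over 46. Igfbp2 and its neighbour Igfbp5 had r = 0.201 and 0.190. Stat5b and its neighbour Stat5a had r = 0.383 and 0.473. A higher r, 0.776 and 0.759, joined Socs2 to 5730420D15Rik, which lies 1 gene away. No coordinates are given, since the build of the deposited values is not given in the sources used here.

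Igfbp1 moved with glucocorticoid-responsive and acute-phase genes, with and without the 4 livers. In the list of glucocorticoid-responsive genes, 7 of 8 rose with Igfbp1 and none fell, where 2.89% of all tested genes rose with Igfbp1 and 5.65% fell (limma, adjusted p under 0.05). The same counts, 7 and 0, were found in the 46 livers, where 4.49% of tested genes rose with Igfbp1. The median r of the list was 0.684, against -0.034 over all tested genes. Its leading genes were the metallothioneins Mt1 (r = 0.745, rho 0.753, 0.699 without the 2 farthest livers) and Mt2 (0.697, and 0.708 over the 46), the phosphatase gene Dusp1 (0.702, rho 0.741, and 0.695 over the 46) and the receptor chaperone gene Fkbp5 (0.686 and 0.680). Mt1 had r from 0.442 to 0.869 within the stretches and 0.748 over the 46 livers. Tsc22d3, which encodes the glucocorticoid-induced GILZ, was the gene of the list that was not called (0.109 over 50 and 0.116 over 46).

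Acute-phase genes, whose plasma proteins the liver secretes in inflammation, also moved with Igfbp1. Of 17 tested, 10 rose with Igfbp1 and none fell, over 50 as over 46 livers, and the median r was 0.472. The highest were the inter-alpha-trypsin inhibitor chain Itih3 (r = 0.645, limma adjusted p = 0.000155, and 0.666 over the 46), the copper carrier Cp (0.594 and 0.588), the heme carrier Hpx (0.587 and 0.581) and the fibrinogen chain Fgb (0.588 and 0.640).

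Of the 10 tested genes of fasting and gluconeogenesis, 3 rose with Igfbp1 over 50 livers and 5 over 46, where 2.89% and 4.49% of all tested genes rose. Pck1, the gluconeogenic PEP carboxykinase, had r = 0.526 over 50 and 0.718 over 46, with rho 0.627 and 0.677. G6pc, glucose-6-phosphatase, had r = 0.426 and 0.640. Both passed the test in both sets of livers (limma, adjusted p = 0.00362 and 0.026 over 50).

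Lipogenic genes went the other way. Of 11 tested, 2 fell with rising Igfbp1 over 50 livers and 7 over 46, where 10.7% of all tested genes fell, and none rose. The malic enzyme gene Me1 had r = -0.478 over 50 and -0.572 over 46, and the fatty acid synthase gene Fasn had -0.428 and -0.579. Female-biased liver genes fell with Igfbp1 in 2 of 14 cases over 50 livers and in 6 over 46. Among these the acyl-CoA thioesterase gene Acot3 had r = -0.448 and -0.587, and the cytochrome gene Cyp2b9 had -0.319, not called, and -0.536, called. Irs1, an adaptor of the insulin and IGF receptors, fell with Igfbp1 (r = -0.501, rho -0.563, limma adjusted p = 0.0063, and -0.590 over the 46). In the clock list, 1 of 13 genes rose with Igfbp1 and 1 fell over 50 livers, against 2 and 5 over 46.

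The genes most like Igfbp1 over all tested were Gadd45g, a stress sensor gene (r = 0.810, rho 0.810, and 0.824 over the 46), Mt1 and Btg2, an antiproliferative transcriptional cofactor (0.743 and 0.790). The lowest r belonged to the heat shock co-chaperone Dnajb1 (-0.698 and -0.688) and the chromatin remodelling subunit Ino80b (-0.685 and -0.671). Gadd45g had r from 0.723 to 0.913 within the 4 stretches.

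Igfbp2 moved with a part of the fasting genes. Of 10, 3 rose with Igfbp2 over 50 and over 46 livers, where 0.64% and 0.92% of all tested genes rose. These were Pck1 (r = 0.588, rho 0.668, limma adjusted p = 0.00351, and r = 0.628 over the 46), G6pc (0.579 and 0.584) and, over 50 livers, the mitochondrial fatty acid importer Cpt1a (0.530, and 0.419 over the 46), in whose place the coactivator gene Ppargc1a was called over the 46. Hepatocyte markers rose with Igfbp2 as well, 3 of 13 over 50 and over 46 livers (Ahsg, Apoa1 and Rbp4), with a median r of 0.297 and 0.341. That of the fasting list was 0.232 and 0.230. Endothelial markers rose with Igfbp2 in 0 of 13 cases over 50 livers and in 2 over 46, and the part of either marker list in these relations was not tested. Of 11 lipogenic genes none was called over 50 livers, and 6 fell with rising Igfbp2 over the 46, where 1.7% of tested genes fell. Fasn had r = -0.158 over 50 and -0.645 over 46, and the triglyceride remodelling gene Pnpla3 had -0.396 and -0.647. The lipogenic list mean was 6.30 to 6.79 in the 4 livers that stood apart and 7.50 to 9.65 in the other 46. The genes most like Igfbp2 were B930025P03Rik (r = 0.703 over 50 and 0.699 over 46), the dynein chain gene Dnaic1 (0.691 and 0.762) and 4833411C07Rik (0.685 and 0.668), and the lowest r belonged to the DNA repair kinase gene Prkdc (-0.589 and -0.632) and the protease gene Capn7 (-0.579 and -0.574). B930025P03Rik and 4833411C07Rik lie 1 gene apart in the RefSeq order and had r = 0.723 and 0.742 with each other, so shared or overlapping transcription could not be told apart from covariation there either.

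**Figure D4:**
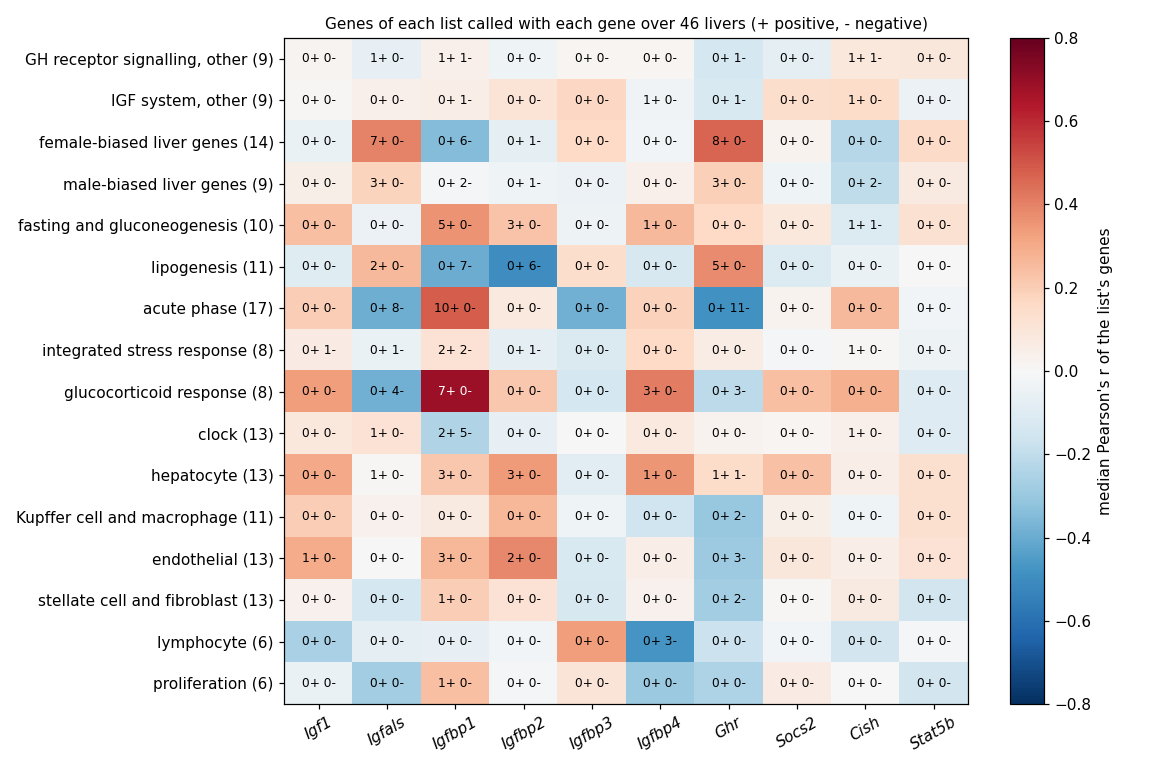
Genes of 16 lists (rows, number tested in brackets) called with each of the 10 genes (columns) over the 46 livers, as counts of positive and negative relations, coloured by the list's median Pearson's r. Igfbp1 had 7 positive glucocorticoid-responsive genes and 10 positive acute-phase genes, and Ghr had 11 negative acute-phase genes and 8 positive female-biased genes.

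Over the 46 livers, Ghr and Igfals shared relations with female-biased genes that were not called with Igf1 or Igfbp4. Over 50 livers, 10 of the 14 tested rose with Igf1 and 11 with Igfbp4, where 20.2% and 21.9% of tested genes rose. Over the 46 none did, where 0.55% and 1.06% of tested genes rose. Female-biased liver genes, whose sex difference in mouse follows the pattern of growth hormone release, rose with Ghr in 13 of 14 cases over 50 livers and in 8 over 46, and none fell. Of all tested genes 24% rose with Ghr over 50 livers and 9.19% over 46. The peroxisomal transporter gene Abcd2 had r = 0.744 over 50 and 0.739 over 46 (rho 0.731 and 0.683), and the hydroxyacid oxidase gene Hao2 had 0.763 and 0.692. With Igfals, 12 of these 14 genes rose over 50 livers and 7 over 46, where 19.6% and 5.9% of tested genes rose. Cyp2b9, a cytochrome of the female pattern, was the gene most like Igfals of all (r = 0.899, rho 0.691, and 0.689 over the 46). Its r within the stretches lay between 0.592 and 0.965. Of 9 male-biased genes tested, 3 rose with Ghr and 3 with Igfals over the 46 livers, none fell, and Cyp7b1, an oxysterol hydroxylase, had r of 0.677 and 0.599 over the 46.

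Acute-phase genes fell with rising Ghr in 11 of 17 cases over the 46 livers, where 4.47% of tested genes fell, and none rose. Over all 50, 2 fell and 1 rose, where 26.8% of tested genes fell with Ghr. Lcn2, which encodes an iron-sequestering neutrophil and hepatocyte protein, had r = -0.443 over 50 and -0.662 over 46 (rho -0.674 and -0.657), and Cd14, a lipopolysaccharide co-receptor, had -0.606 and -0.580. With Igfals, 8 of the 17 fell over the 46 livers, where 1.79% of tested genes fell, and 4 of the 8 glucocorticoid-responsive genes fell. Markers of other cells fell with Ghr over the 46 livers as well: 2 of 11 macrophage, 3 of 13 endothelial and 2 of 13 stellate genes, 1 of 2 cholangiocyte genes (Sox9, r = -0.489) and the single neutrophil gene tested, the elastase gene Elane (-0.512). Elane also fell with Igfals (-0.448 over the 46). The macrophage list mean ranged from 6.15 to 8.47 in these livers, and the part of these markers in the relations with Ghr and Igfals was not tested.

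Lipogenic genes rose with Ghr in 11 of 11 cases over 50 livers and in 5 over 46, and with Igfals in 11 and in 2. Of all tested genes 24% and 9.19% rose with Ghr, and 19.6% and 5.9% with Igfals. Over 50 livers 9 of the 11 also rose with Igf1 and 8 with Igfbp4, where 20.2% and 21.9% of tested genes rose. Over the 46 none did, where 0.55% and 1.06% rose. Thrsp, a lipogenic regulator, had r = 0.707 with Ghr over 50 and 0.401 over 46. The genes most like Ghr were the glutathione transferase Gsta3 (r = 0.923, and 0.733 over the 46), the epoxygenase Cyp2j5 (0.916 and 0.676) and the RNA editing cofactor A1cf (0.916 and 0.683), and the lowest were Cdca4 (-0.902 and -0.709) and Necap2 (-0.857 and -0.304). Beside Cyp2b9, Igfals was most like the apolipoprotein Apoa2 (0.873 and 0.572) and the vitamin E carrier Afm (0.872 and 0.543), and least like Cntrl (-0.820 and -0.508) and Ncoa7 (-0.812 and -0.240).

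Over 50 livers Igf1 and Igfbp4 rose with most hepatocyte markers, as Ghr and Igfals did, and few of these relations were called over the 46. Of 13 hepatocyte markers, 12 rose with Igf1 and 12 with Igfbp4 over 50 livers, where 20.2% and 21.9% of tested genes rose. Over the same livers 11 rose with Ghr and 10 with Igfals, where 24% and 19.6% of tested genes rose. Over the 46, 0 rose with Igf1 and 1 with Igfbp4, where 0.55% and 1.06% of tested genes rose. In either direction limma called 0.839% and 1.89% of tested genes (1715 and 1826 genes at an unadjusted p under 0.05). The median r of the markers over the 46 was 0.304 and 0.353, against 0.0248 and 0.0186 over all tested genes. There 1 rose and 1 fell with Ghr, where 9.19% of tested genes rose and 4.47% fell. With Igfals 1 rose, where 5.9% of tested genes rose. The prothrombin gene F2 had r = 0.776 with Igf1 and 0.846 with Igfbp4 over 50 livers, and 0.271 and 0.353 over the 46. All 6 proliferation markers tested fell with Igf1 over 50 livers, where 23.3% of tested genes fell, and none over 46, where 0.55% rose and 0.289% fell. The same 6 fell with Igfbp4, Ghr and Igfals over 50 livers, where 23.9%, 26.8% and 24.1% of tested genes fell. None of them was called with these 3 genes over the 46, where 0.83%, 4.47% and 1.79% fell. The mean of the proliferation markers was 8.59 in animal 64, the liver lowest for Igf1, Igfbp4 and Ghr.

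Slc22a26, a solute carrier, was the gene most like Igf1 (r = 0.878 over 50 and 0.575 over 46), followed by Pemt, which makes phosphatidylcholine (0.851 and 0.590), and the protease gene Habp2 (0.850 and 0.540). The lowest r with Igf1 belonged to the centrosomal Pcnt (-0.816 and -0.445) and Hpf1 (-0.807 and -0.509). Igfbp4 was most like Col18a1 (0.885 and 0.593), the coagulation factor gene F7 (0.884 and 0.702) and the plasminogen gene Plg (0.883 and 0.542), and least like the cell cycle repressor Rbl1 (-0.872 and -0.636) and Cenpc1 (-0.870 and -0.461). In the 46 livers, 3 of 8 glucocorticoid-responsive genes rose with Igfbp4, among them Fkbp5 (r = 0.557), where 1.06% of tested genes rose and 0.83% fell.

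The highest r values of Igfbp3 were not found without the 4 livers. Over 50 livers its most like genes were the natriuretic peptide clearance receptor Npr3 (r = 0.774), Galnt11 (0.773) and Sptbn1 (0.773), and over the 46 the same genes had r of 0.098, 0.145 and 0.213. The lowest r belonged to the secreted matrix protein gene Spon2 (-0.683, and -0.453 over the 46) and the lactate transporter gene Slc16a1 (-0.665 and -0.512), of which neither was called over the 46 (limma adjusted p = 0.219 and 0.122). Limma called no gene with Igfbp3 over the 46 livers, although 936 had an unadjusted p under 0.05. Of 9 other IGF system genes, 6 rose with Igfbp3 over 50 livers, where 4.94% of tested genes rose and 1.16% fell, and 0 over 46. The receptor gene Igf1r was at 7.45 in animal 84, against a median of 3.93, and its r with Igfbp3 was 0.754 over 50 livers and 0.261 over 46. Igfbp5 was highest in animal 161, at 10.73 against a median of 4.13. In that liver Csn2, a milk casein gene, was at 12.05, against a median of 2.41 in the 46, while the other 4 mammary and adipocyte markers measured were highest in other livers. The cholangiocyte marker mean in animal 161 was 5.29, against a median of 3.40 in the 46. The part of other epithelial cells in its Igfbp5 level was not tested.

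Cish had a small set of partners that included other regulators of growth hormone signalling. Socs3, a related inhibitor induced by STAT3, rose with Cish (r = 0.647, rho 0.494, limma adjusted p = 0.000495, and 0.636 over the 46). Bcl6, a repressor that in mouse liver occupies STAT5 sites and favours male-pattern genes, fell with Cish (r = -0.535, rho -0.515, limma adjusted p = 0.0109, and -0.608 over the 46). Mup20, a male-pattern urinary protein gene, fell with Cish too (r = -0.570 and -0.583). The insulin adaptor gene Irs2 rose with Cish (0.508 over 50 and over 46). The most like genes were Cadm4 (0.681 over 50 and 0.640 over 46), the salt-inducible kinase Sik1 (0.663 and 0.627) and Slc37a1 (0.656 and 0.662), and beside Mup20 the lowest was the mitochondrial ribosomal protein gene Mrps15 (-0.595 and -0.607). Of all tested genes, 0.848% rose with Cish and 0.271% fell.

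Few genes moved with Socs2. Limma called 7 genes with Socs2 over 50 livers, 0.0541% of tested genes rising and 0.00902% falling, and 2 over the 46 (1326 and 917 at an unadjusted p under 0.05), although its SD was exceeded by that of only 3.25% of tested genes. The most like was 5730420D15Rik (r = 0.776, rho 0.682, and 0.759 over the 46), which lies near Socs2 with 1 gene between them in the RefSeq order, so shared or overlapping transcription could not be told apart from covariation. Klb, the co-receptor for FGF21, followed (0.629 and 0.630), then the transporter Slco1a4 (0.568 and 0.493). The stress transcription factor gene Ddit3 fell with Socs2 (r = -0.550, limma adjusted p = 0.0483), but not past the threshold over the 46 (-0.541, 0.110), and Lrp8 had -0.533 and -0.482. No list other than the one with Ddit3 held a gene called with Socs2, and Bcl6 and Stat5a were not called.

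Stat5b was most like Dapk1 (r = 0.636 over 50 and 0.549 over 46), Slc17a4 (0.611 and 0.372) and Mreg (0.604 and 0.446), and least like Zfp106 (-0.622 and -0.487) and Emp1 (-0.604 and -0.383). Over the 46 livers limma called no gene with Stat5b, although 860 had an unadjusted p under 0.05. Over the 50, 7 of 14 female-biased genes rose with Stat5b, where 5.14% of tested genes rose and 3.41% fell, with Cyp2b9 at r = 0.597, against 0.368 over the 46, where it was not called.

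The remaining genes of growth hormone and IGF signalling were taken from 2 lists of 12 and 13 genes, of which 9 each could be tested. Jak2, the kinase bound to the receptor, fell with rising Igfbp4 (r = -0.696), Igfals (-0.638), Igf1 (-0.634) and Ghr (-0.577) over 50 livers and with none of them over the 46. The phosphatase genes Ptpn1, Ptpn6 and Ptpn11 also fell with these 4 genes over the 50 livers. Over the 46, Ptpn11 fell with Igfbp1 alone among the 10 (r = -0.414). Stat3 rose with Igf1 (0.511), Igfbp4 (0.591) and Igfbp1 (0.447) over 50 livers, and with Igfbp1 over the 46 (0.472). Stat5a rose with Igfals over the 46 (0.437). Socs3 fell with Ghr over the 46 (-0.453), and the adaptor gene Sh2b1 rose with Igfbp4 over the 50 (0.445).

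In the IGF list, the insulin receptor gene Insr rose with Igfbp4 in both sets of livers (r = 0.694 and 0.549), and with Igf1 (0.602) and Ghr (0.614) over the 50 alone. Igfbp7 and the protease gene Pappa rose with Igfbp3 over the 50 (0.489 and 0.503), as did the protease gene Htra1 (0.458). Igf2r and Igfbp6 were called with none of the 10 genes in either set.

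The animal number in the labels was the sole number that differed between mice, and what it stands for is not given. The numbers fall into 4 stretches, 7 to 79 (n = 8), 84 to 128 (n = 13), 137 to 235 (n = 16) and 253 to 301 (n = 13), which were chosen with the earlier results in view. None of the 10 genes was called with the number (limma, adjusted p under 0.05), and 2 of the 10 had an unadjusted p under 0.05. Of all tested genes 9.3% were called, so for 10 genes a count of 0 was near that share. Igfbp2 had a slope of 0.304 ± 0.104 log2 per 100 numbers (SE, r = 0.380, permutation p = 0.00627, rho 0.383, limma adjusted p = 0.0518), with stretch medians of 8.42, 8.79, 8.75 and 9.02. Igfbp1 had a slope of 0.463 ± 0.186 (SE, r = 0.328, permutation p = 0.0199, rho 0.284, limma adjusted p = 0.107), with stretch medians of 9.23, 10.35, 10.27 and 10.92. Within the stretches the r of Igfbp1 with the number was 0.071, -0.372, -0.114 and -0.459, so the relation did not hold inside them. For Igfbp2 it was 0.552, 0.337, 0.039 and -0.376. Igfals had stretch medians of 8.56, 8.26, 8.29 and 8.18, and Igf1 of 9.33, 9.43, 9.55 and 9.59, with neither past the threshold.

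**Figure D5:**
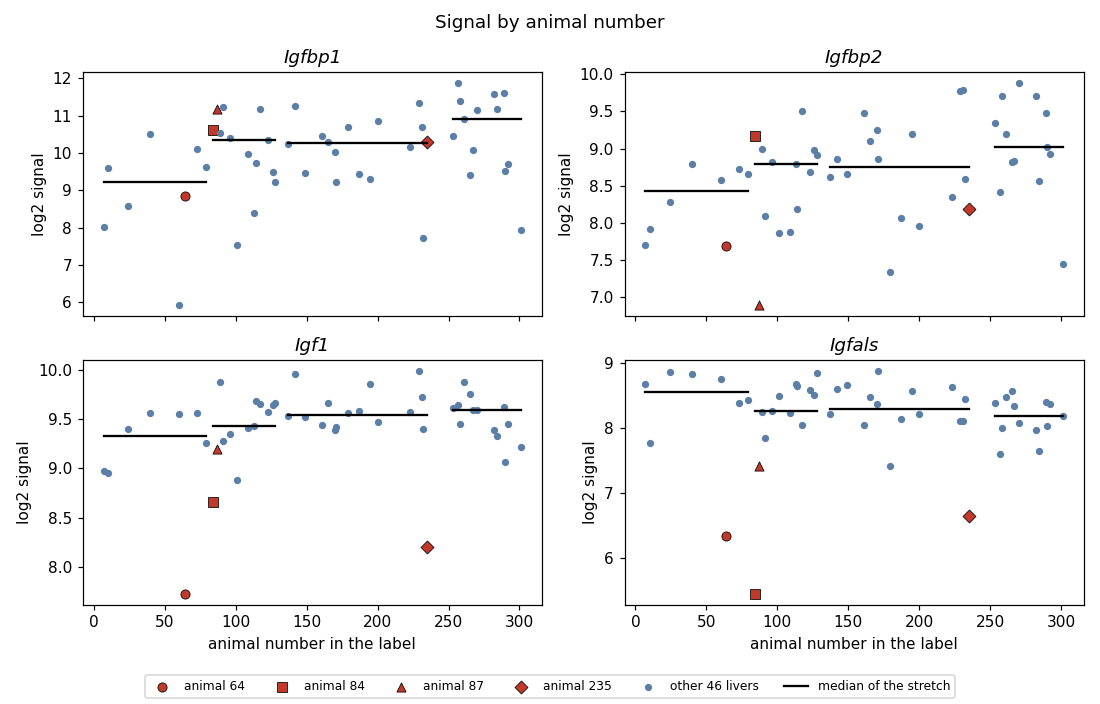
Log2 signal of Igfbp1, Igfbp2, Igf1 and Igfals (vertical axes) against the animal number (horizontal axis), with the 4 livers that stood apart in red, the other 46 in blue, and the median of each stretch as a black bar. The Igfbp1 bars lay at 9.23, 10.35, 10.27 and 10.92, with wide overlap of the points.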

How the data were processed

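Each liver gave 100 ng of total RNA for biotin labelling by the WT Plus kit, as the label protocol says. Per the submitters' processing notes the authors used RMA and Affymetrix Expression Console (version 1.4.1), and the deposited values are log2 signals; the genome build is not given in the sources used here. RMA removes differences in total RNA between livers. Of 41345 probe sets, 23521 carried 1 symbol, 1814 several and 16010 none in GEO's platform annotation, and only the first were used.

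Every tested gene was fitted on each of the 10 genes with limma 3.58.1 (eBayes with trend, R 4.3.3), with Benjamini-Hochberg adjustment over all tested genes. Pearson's r and Spearman's rho had two-sided permutation p-values (100000 resamples, scipy 1.17.1), and 45 pairs were computed. P-values measure spread between mice. The number of arrays limits precision. Livers stood apart when their median correlation lay over 3 interquartile ranges below the lower quartile. The genes named are the 10, the 3 highest and 2 lowest by r with each, up to 4 per list by size of r, and the 2 signalling lists. Alb, Csn2 and, with Igfbp1, Tsc22d3 fall outside that rule and were named after their values were seen. Members and lists were chosen with earlier results of these data known. Alternatives were the mean of probe sets, centring, no filter, ranks, leaving out livers, stretches as a block, and the hepatocyte mean or first component as covariate.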

Additional observations from a re-analysis of the deposited data

How the results depend on the processing

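Against 9 called pairs over 50 livers, 3 were called on ranks (2 positive, 1 negative), 2 without the 4 livers that stood apart, 4 without these and animals 96 and 161 (an alternative chosen after seeing the data, for the pancreatic marker mean of 11.43 in animal 96 and the mammary list mean in 161, which Csn2 carried), 4 without the 2 farthest livers and 4 with the hepatocyte marker mean as covariate (1 positive, 3 negative). With the first array component as covariate 8 were called (7 positive, 1 negative), of which 1 was among the 9. The other alternatives called 8 to 11, and no pair was called under all alternatives. The cause of the lower counts was not tested. With the hepatocyte covariate the r of Igf1 with Ghr was -0.00138 and of Igfals with Igfbp4 -0.00629; with the first array component as covariate the r of Igfals with Igfbp4 was -0.0647, of Igfals with Ghr -0.00961 and of Ghr with Stat5b -0.0271. Of 500 single relations under alternatives, 436 stayed on their side of the threshold, 40 lost the call, 19 gained one and 5 called relations changed sign; 49 others, none of them a called relation, also changed sign. No member was called with the animal number under any alternative run. No paired analysis was possible because the labels give 1 group. Cish, with a median of 4.66, lay close to the filter at 3.61, which limits how well its changes are measured.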
